A study of Homo sapiens with 2 samples.

Results

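10 intestinal epithelial genes were followed between an olaparib-resistant derivative of the Capan-1 line and its parent. They are VIL1, SI, ANXA13, FABP2, CDHR5, HEPH, TM4SF20, TM4SF5, CDH17 and KRT20, all 10 of which were found among the 31845 Ensembl genes of the expression table. They are listed by symbol and had been selected on their counts in these same libraries, so every difference in them is given as a description and none was tested. Capan-1 is an established line of human pancreatic adenocarcinoma whose BRCA2 gene is mutant, although the labels enter its cell type as breast cancer. The resistant cells had been exposed stepwise to rising olaparib, a PARP inhibitor, from 15 nM to 128 uM, and the parental cells had not. The labels do not say whether the resistant cells are 1 clone, or whether drug was present when RNA was taken. There was 1 library per group, so no replicate error exists and intervals cover counting error only. The columns headed with the name of the parental line were taken as parental and the remaining pair, headed RCA, as resistant, and every direction rests on that.

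Enterocytes are the absorptive cells of the intestinal lining. Their apical face carries a brush border of packed microvilli, each built on bundled actin, joined at the tips by cadherin links and studded with digestive enzymes and transporters. Transcription factors of the CDX, HNF4 and GATA families act on many enterocyte genes. The listed genes cover several compartments of this cell. Villin (VIL1) lies in the microvillus core and CDHR5 in the links between microvilli, and sucrase-isomaltase (SI) is an enzyme of the apical surface. FABP2 is a cytosolic fatty acid carrier, hephaestin (HEPH) works at the basolateral side, CDH17 at lateral cell contacts and KRT20 in intermediate filaments. The name brush border therefore describes some of them and not the list as a whole.

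All 10 genes were higher in the resistant library. Together they held 14724 counts there, or 427 CPM (counts per 1000000, exact binomial 95% interval 420 to 434), against 488 counts in the parental library, or 14.1 CPM (interval 12.9 to 15.4). The sum was 30.4-fold higher in the resistant library (counting interval 27.8 to 33.3). At a threshold of 50 counts in the higher library and a 2-fold difference, 10 of 10 were higher, beside 6.00% of the 15102 genes at that count minimum and 1.67% at 4-fold, a size that all 10 also passed. Since the genes were listed for this difference, nothing is read from that count. Only 3 of them, VIL1, CDH17 and KRT20, had 50 counts in each library, and the other 7 reached the minimum through the resistant library alone. Among the 14371 genes with 50 counts in the parental library, 3.55% were at least 2-fold higher. In bulk RNA, a larger share of cells with a transcript and more transcript per cell cannot be told apart.

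**Figure D1:**
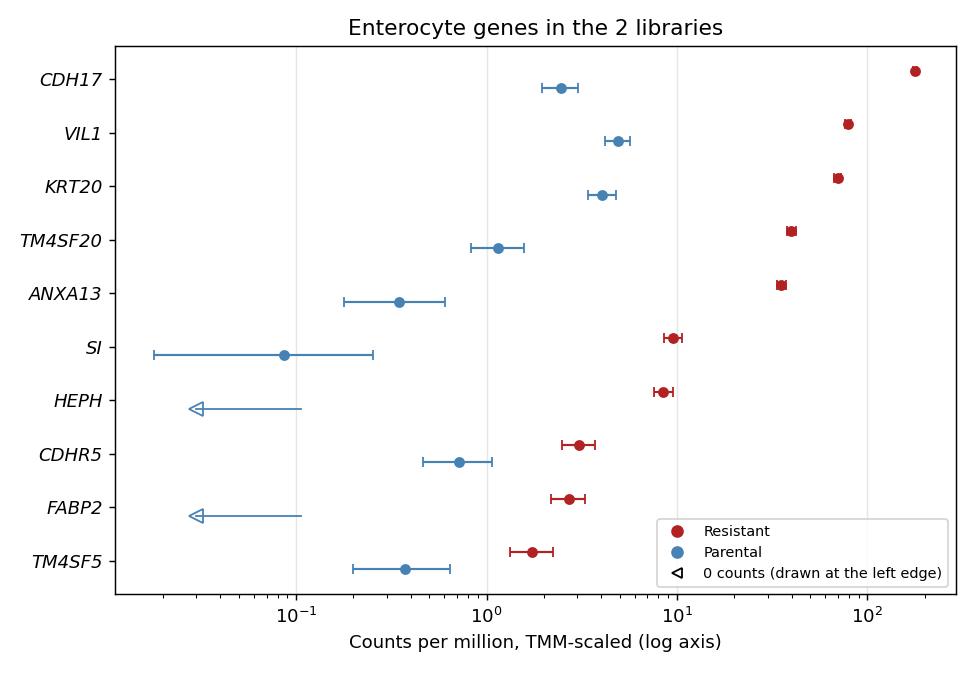
CPM, scaled with TMM factors, of each gene in the resistant library (red) and the parental library (blue), with exact Poisson 95% intervals on a log axis; triangles mark libraries at 0 counts. The resistant value lies to the right of the parental interval for all 10 genes, and HEPH and FABP2 had 0 parental counts.

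Villin severs and bundles actin in the microvillus core. VIL1 had 2719 resistant and 170 parental counts, 16.1-fold higher (counting interval 13.8 to 18.9). Exons of VIL1 overlap those of USP37 on the opposite strand, and the strand setting of the counting is not given in the sources used here. USP37 had 631 resistant and 468 parental counts, a log2 ratio of 0.44. CDHR5 is a mucin-like protocadherin that pairs with CDHR2 to link the tips of microvilli. CDHR5 had 105 resistant and 25 parental counts, 4.23-fold higher (interval 2.71 to 6.83).

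Sucrase-isomaltase splits sucrose and starch products at the apical surface. SI had 330 resistant and 3 parental counts, a ratio of 111 (interval 37.6 to 540). SI was close to absent from the parental library, and with 3 counts there its ratio is loosely bounded. FABP2, the intestinal fatty acid binding protein, had 93 resistant counts and 0 parental counts. Against a floor of 3 counts per library it was 31.2-fold higher, with a counting interval from 24.9 upward. HEPH, a copper-dependent ferroxidase that oxidises iron leaving the enterocyte, had 292 resistant counts and 0 parental counts. By the same floor it was 98.0-fold higher, with an interval from 79.2 upward.

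Annexin A13 binds membranes in a calcium-dependent manner and is largely confined to the intestine and kidney among annexins. ANXA13 had 1217 resistant and 12 parental counts, 102-fold higher (interval 58.2 to 198). TM4SF20 and TM4SF5 encode membrane proteins of the L6 family, which span the membrane several times. TM4SF20 had 1369 resistant and 40 parental counts, 34.5-fold higher (interval 25.2 to 48.4). TM4SF5 had 60 resistant and 13 parental counts, 4.65-fold higher (interval 2.52 to 9.23), so these relatives differed in size although not in direction. The interval of TM4SF5 contains that of CDHR5, and these 2 genes, which had the smallest differences of the list, cannot be ordered.

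CDH17, the liver-intestine cadherin, had the most counts of the list in the resistant library. It had 6138 counts there and 85 parental ones, 72.7-fold higher (interval 58.7 to 91.1), and made up 41.7% of the resistant counts of the 10 genes. In the parental library its share was 17.4%, and VIL1 and KRT20 were ahead of it. KRT20, a type I keratin of intestinal and gastric surface cells, had 2401 resistant and 140 parental counts, 17.3-fold higher (interval 14.6 to 20.6).

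On the log2 scale with a prior of 1 count, the ratios of the 10 genes ran from 2.04 for CDHR5 to 8.20 for HEPH, with a median of 5.62, beside 0.06 for all genes at the minimum. With HEPH and FABP2 set at their lower bounds the median was 5.02. CDHR5 and TM4SF5 stood apart at 2.04 and 2.13, below a gap to VIL1 at 4.001. The value of HEPH rests on the prior, since its parental count was 0. With a prior of 5 counts it was 5.90, below ANXA13 and CDH17.

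**Figure D2:**
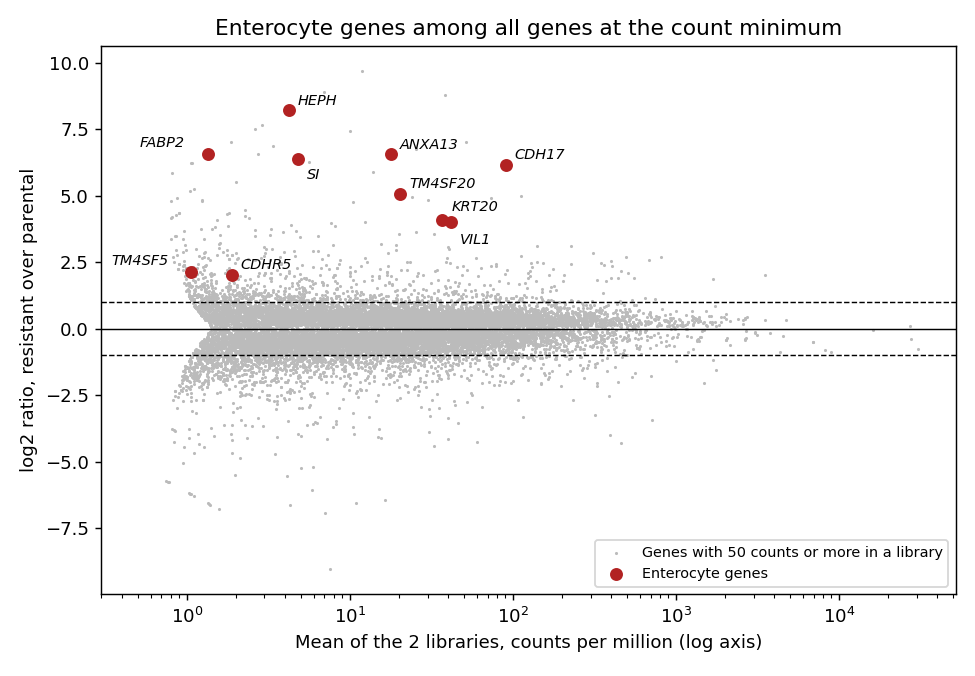
Log2 ratio of resistant over parental (vertical) against the mean CPM of the libraries (horizontal, log axis) for the 15102 genes with 50 counts or more; dashed lines mark 2-fold. The 10 enterocyte genes (red) lie between 2.04 and 8.20, with CDHR5 and TM4SF5 lowest.

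Levels were compared between genes with the deposited FPKM values, which are per length. In the resistant library CDH17 was at 19.5 FPKM, KRT20 at 16.2, VIL1 at 16.2, ANXA13 at 9.005 and TM4SF20 at 7.01. These 5 levels stood well above the others, which were 0.758 for TM4SF5, 0.645 for SI, 0.571 for HEPH, 0.441 for FABP2 and 0.354 for CDHR5. Counting intervals of neighbours in this order overlapped for KRT20 and VIL1 and for each adjacent pair from TM4SF5 to CDHR5. TM4SF5 and SI nevertheless lay clear of FABP2 and CDHR5, and HEPH lay clear of CDHR5. CDH17 exceeded 79.0% of genes at the minimum in the resistant library, against 3.83% in the parental library. CDHR5 exceeded 6.83% there and 0.775% of genes in parental cells, so it stayed among the lowest genes in each. In the parental library the highest levels were 0.973 FPKM for VIL1 and 0.908 for KRT20, both below the 5 leading resistant levels. The gene length that the authors' FPKM implies was divided by GENCODE exonic length and set against the same quotient for the median coding gene. VIL1 and ANXA13 were near that median, at 0.846 and 1.24, while the other 8 genes had long implied lengths, at 2.48 to 2.98, against a 90th percentile of 2.83. Per kilobase of exonic length, TM4SF20 moved ahead of VIL1 and ANXA13 to rank 3, and the other 7 ranks were as with FPKM.

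Close relatives showed how each gene stood within its family. Shares are of deposited FPKM and so depend on the implied gene lengths, which were long for CDH17 and KRT20. Of the summed FPKM of villin and gelsolin family genes, VIL1 made up 28.2% in resistant and 2.005% in parental cells. Its relative AVIL, advillin, differed the other way, with 13 resistant and 121 parental counts, 9.25-fold lower (interval 5.21 to 17.9), and VILL, GSN and SVIL lay within 2-fold. CDH17 made up 25.7% of the FPKM of 4 cadherins in the resistant library, against 0.640% in the parental library. CDH1, E-cadherin, had a log2 ratio of 0.32 and CDH3 of 0.95. In resistant counts CDH17 was ahead of CDH1, with 6138 against 3587, although its FPKM was lower, at 19.5 against 44.3. KRT20 was 0.819% of the simple keratin FPKM in resistant and 0.0650% in parental cells. It too had more resistant counts than KRT8, 2401 against 1538, at a lower FPKM, 16.2 against 33.3. KRT7, KRT8, KRT18 and KRT19, which hold most keratin transcript in both, had log2 ratios from 0.35 to 0.75. ANXA13 was likewise a small part of annexin FPKM, 0.604% in resistant and 0.00640% in parental cells. Of its 10 relatives, ANXA6 at 2.16-fold (interval 1.93 to 2.43) was the 1 past 2-fold.

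The remaining families were mixed. HEPH had 0.571 FPKM in resistant cells and was listed at 0 in parental cells, while CP, ceruloplasmin, the plasma ferroxidase of the same family, had 182 resistant and 1160 parental counts, 6.33-fold lower (interval 5.41 to 7.44). The fatty acid binding protein genes FABP4 and FABP6 were 12.1-fold and 3.42-fold lower in the resistant library, and FABP5 had a log2 ratio of 0.91. FABP1, another enterocyte form, had 10 resistant and 0 parental counts. In the L6 family, TM4SF4 was 3.70-fold higher (interval 3.24 to 4.23) and TM4SF18 2.38-fold higher (interval 1.80 to 3.17). TM4SF1 and TM4SF19 had log2 ratios of -0.30 and -0.42, so the family's most abundant gene, TM4SF1, did not share the direction of TM4SF20 and TM4SF5. MGAM, maltase-glucoamylase, the closest relative of SI, had 17 resistant and 47 parental counts, under the minimum.

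**Figure D3:**
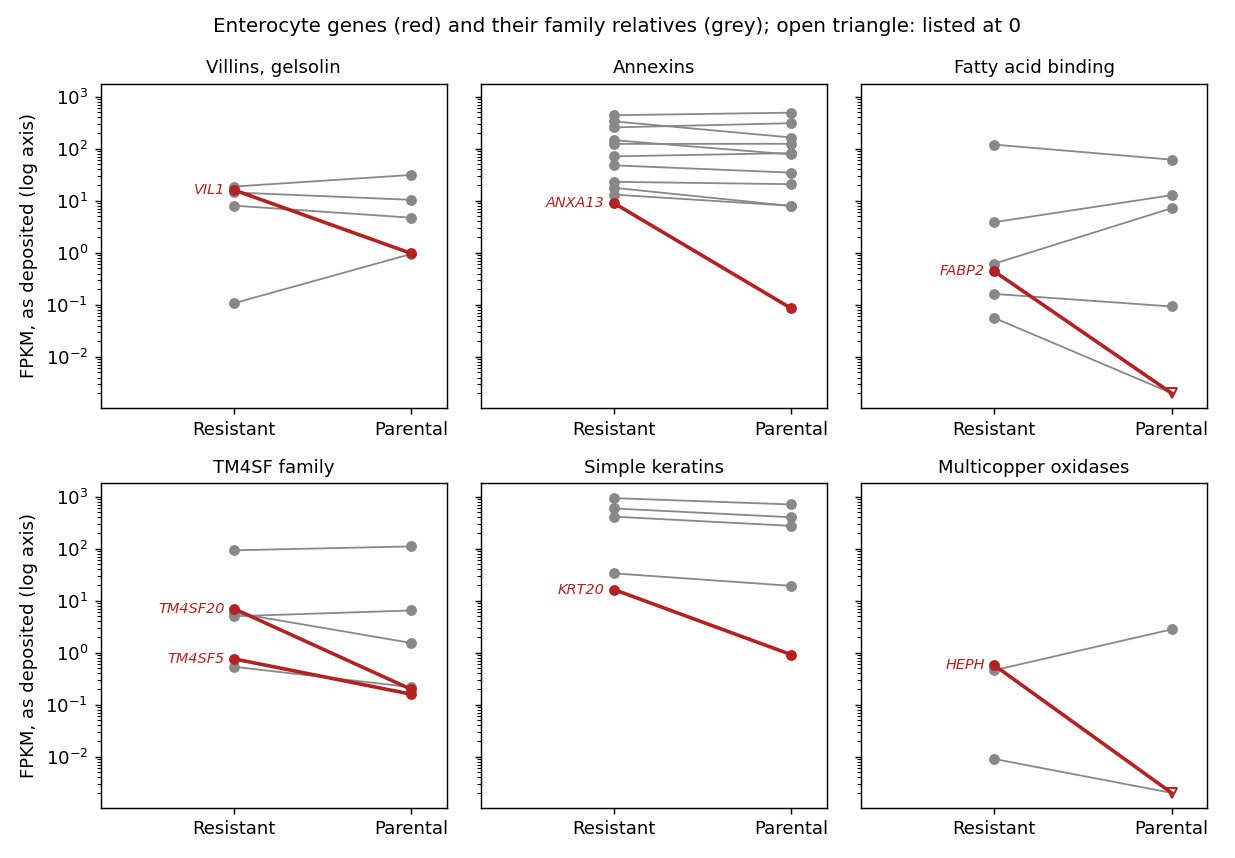
Deposited FPKM (log axis) of VIL1, ANXA13, FABP2, TM4SF20, TM4SF5, KRT20 and HEPH (red) and their family relatives (grey) in the resistant library (left of each panel) and the parental library (right). Open triangles at the bottom mark values listed at 0. The enterocyte genes are far higher in the resistant library, while most relatives are near level and AVIL, FABP4, FABP6 and CP are lower in the resistant library.

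Promoter windows of 6 of the 10 genes were present in the RefSeq promoter table for GRCh38.p14, as 8 windows because HEPH has 3 annotated starts. Each window was the 250 bases before a start. The 4 windows below are shown because they had the lowest GC content of the list and hold the letters CATAAA or AATAAA, cores of motifs bound by CDX factors, on either strand, and these matches are in capitals. They are SI at chr3:165078497-165078746, KRT20 at chr17:40885243-40885492, TM4SF20 at chr2:227379307-227379556 and FABP2 at chr4:119322139-119322388, all on the minus strand and printed 5′ to 3′ in the direction of the gene.
SI: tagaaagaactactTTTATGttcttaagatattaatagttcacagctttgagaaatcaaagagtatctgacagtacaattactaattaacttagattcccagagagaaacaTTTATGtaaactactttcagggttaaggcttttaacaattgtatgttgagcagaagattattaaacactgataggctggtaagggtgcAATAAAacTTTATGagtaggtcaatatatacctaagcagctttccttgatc
KRT20: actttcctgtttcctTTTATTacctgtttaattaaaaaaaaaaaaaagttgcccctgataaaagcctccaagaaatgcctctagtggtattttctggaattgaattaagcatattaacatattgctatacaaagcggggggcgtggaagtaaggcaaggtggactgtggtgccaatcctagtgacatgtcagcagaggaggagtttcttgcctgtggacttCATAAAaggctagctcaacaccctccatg
TM4SF20: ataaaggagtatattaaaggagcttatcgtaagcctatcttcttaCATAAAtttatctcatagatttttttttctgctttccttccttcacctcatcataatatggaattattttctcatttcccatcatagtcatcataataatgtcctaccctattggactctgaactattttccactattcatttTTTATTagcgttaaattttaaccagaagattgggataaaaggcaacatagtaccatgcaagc
FABP2: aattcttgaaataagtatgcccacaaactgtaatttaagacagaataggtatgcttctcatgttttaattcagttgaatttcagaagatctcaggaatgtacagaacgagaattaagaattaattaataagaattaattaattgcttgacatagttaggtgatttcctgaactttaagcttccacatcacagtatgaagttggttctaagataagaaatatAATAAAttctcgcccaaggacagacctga

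The windows are poor in GC and in CpG. Their GC content was 31.6% for SI, 41.2% for KRT20, 31.2% for TM4SF20 and 31.2% for FABP2, against a median of 58% over 35116 windows, and CpG counts over all 8 windows of the list ran from 0 to 3 against a median of 11. A CDX core was found in 5 of the 8 windows, with 4 matches for SI, 2 each for KRT20 and TM4SF20 and 1 each for FABP2 and HEPH. It was found in 22.55% of all windows, and in 61.5% of the 5991 windows with GC of 42% or less, so its presence in these AT-rich windows is common. The SI window holds a close pair of matches, 51 and 43 bases before the start, and 2.84% of the AT-rich windows held 4 or more matches. KRT20 and FABP2 each had a match 29 bases before the start, on the gene strand. The TATA box letters TATAAA, searched on the gene strand, were in 0 of the 8 windows and in 6.80% of all windows. Whether the matches at 29 bases serve as CDX sites or as TATA-like letters was not tested. Cores bound by GATA factors, AGATAA or TGATAA on either strand, were in 6 of the 8 windows, those of TM4SF20, FABP2, KRT20 and TM4SF5 and 2 of HEPH, and in 14.6% of all windows and 38.2% of the AT-rich ones. The letters CAAAGNNCA, an HNF4 pattern on either strand, were in the windows of TM4SF5 and HEPH and in 4.44% of all windows. The CDX and the GATA cores of each pair differ only in their opening letter. A match describes letters in these windows and not binding.

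Among 22 intestinal transcription factor genes, 20 were in the table and 15 reached the minimum. CDX2, an intestinal homeobox factor, had 1042 resistant and 145 parental counts, 7.23-fold higher (interval 6.07 to 8.67), and was the 1 gene past 2-fold upward, or 6.67% of the 15 beside 6.00% of all genes. ELF3, an epithelial ETS factor, was 2.06-fold lower (interval 1.98 to 2.14), within 2-fold under upper quartile scaling and with FPKM values, and the median of the list was -0.40. HNF4A and HNF4G had log2 ratios of 0.66 and 0.46, and GATA6 of -0.02. CDX1 had 2 resistant and 0 parental counts, while ISX, an intestine-specific homeobox gene, had 28 resistant and 0 parental counts, at least 9.40-fold higher.

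Further brush border genes were taken from lists beside the 10, to be read against all genes at the minimum, of which 6.00% were higher, 8.95% lower and the median log2 ratio 0.06. Of 28 other microvillus genes, 25 reached the minimum, with 4 at least 2-fold higher (16%), 0 lower and a median log2 ratio of 0.24. MYO7B, the motor of the microvillus tip links, had 92 resistant and 6 parental counts, 15.4-fold higher (interval 6.83 to 43.1). PDZK1, an apical scaffold, had 399 and 64, 6.28-fold higher, ANKS4B, a scaffold of the tip links, had 567 and 129, 4.42-fold higher, and MYO1A, which ties the actin core to the membrane, had 755 and 263, 2.89-fold higher. The other genes at the minimum were within 2-fold, from a log2 ratio of -0.76 for BAIAP2L2 to 0.77 for NHERF1. Among them EZR (ezrin) was at -0.47, PLS1 (fimbrin) at -0.31, EPS8 at 0.24 and ESPN (espin) at 0.49. The tip-link set was uneven around CDHR5. CDHR2, its partner, had 16 resistant and 8 parental counts, and USH1C (harmonin) and CALML4 had log2 ratios of -0.25 and 0.64.

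Digestive enzymes other than SI were mostly sparse. Of 17 listed hydrolases and peptidases, 6 reached the minimum, with 2 higher (33.3%, beside 6.00% of all genes), 0 lower and a median of 0.91. DPP4, a dipeptidyl peptidase of the apical surface, had 2084 resistant and 176 parental counts, 11.9-fold higher (interval 10.2 to 14.0), and GGT1 was 2.15-fold higher. LCT, lactase, had 7 resistant and 8 parental counts and ALPI, intestinal alkaline phosphatase, 1 and 3, so neither was measurable next to SI. Other enzymes under the minimum went either way, with MEP1A at 13 resistant and 0 parental counts, TREH at 19 and 7 and MGAM at 17 and 47. Of 24 transporter genes, 5 reached the minimum, 1 higher and 2 lower (20% and 40%, beside 6.00% and 8.95% of all genes), with a median of -0.82. That lean rests on the minimum, since 4 were higher and 4 lower with a minimum of 10 counts, at a median of -0.22, and with none the median was 0.60. SLC5A1, the sodium-glucose transporter, had 98 resistant and 400 parental counts, 4.05-fold lower (interval 3.24 to 5.11). SLC15A1, the peptide transporter, was 2.35-fold lower, and SLC3A1, a subunit of the cystine carrier, 3.38-fold higher.

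Fat and iron handling genes stood beside FABP2 and HEPH as follows. Of 20 lipid genes, 10 reached the minimum, with 4 higher (40%) and 2 lower (20%), beside 6.00% and 8.95% of all genes, and a median of 0.51. CD36, a fatty acid receptor, had 71 resistant and 1 parental counts, a ratio of 71.5 (interval 12.4 to 2862), and MTTP, which loads lipoproteins, had 84 and 2, a ratio of 42.3 (interval 11.3 to 355). SCARB1 was 3.11-fold higher, and FABP6, the ileal bile acid carrier, lower as above. Of 17 iron genes, 15 reached the minimum, with 1 higher (6.67%, near the 6.00% of all genes), 3 lower (20%, beside 8.95%) and a median of -0.31, which was 0.12 with a minimum of 200 counts. SLC40A1, ferroportin, the exporter that works with HEPH, had 1872 resistant and 6052 parental counts, 3.21-fold lower (interval 3.05 to 3.38), so the pair differed in opposite directions. HMOX1 and CP were lower and SLC39A8, a metal importer, 2.47-fold higher.

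Other intestinal surface genes were mixed. Of 17, 7 reached the minimum, with 1 higher, 4 lower (57.1%, beside 8.95% of all genes) and a median of -1.81. LGALS4, galectin-4, was 4.05-fold higher, while CEACAM7 was 4.99-fold, CEACAM5 4.18-fold and CEACAM6 4.02-fold lower. All 4 lower genes belong to the CEACAM family, whose genes resemble each other enough to share reads. With a minimum of 10 counts, 4 of the list were higher and 5 lower, at a median of -0.65. GPA33, a surface antigen with 28 resistant and 0 parental counts, was among the higher ones. CA4, a carbonic anhydrase with 0 resistant and 18 parental counts, was among the lower ones. The microvillus, hydrolase, transporter and lipid lists together had 46 genes at the minimum. Of these, 11 were higher (23.9%), 4 lower (8.70%) and 31 within 2-fold, beside 6.00% higher and 8.95% lower of all genes. The iron, transcription factor and surface lists are not in that sum. Each of them had 1 gene higher, with 3, 1 and 4 lower in that order, so the upward share depends on which lists are pooled.

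**Figure D4:**
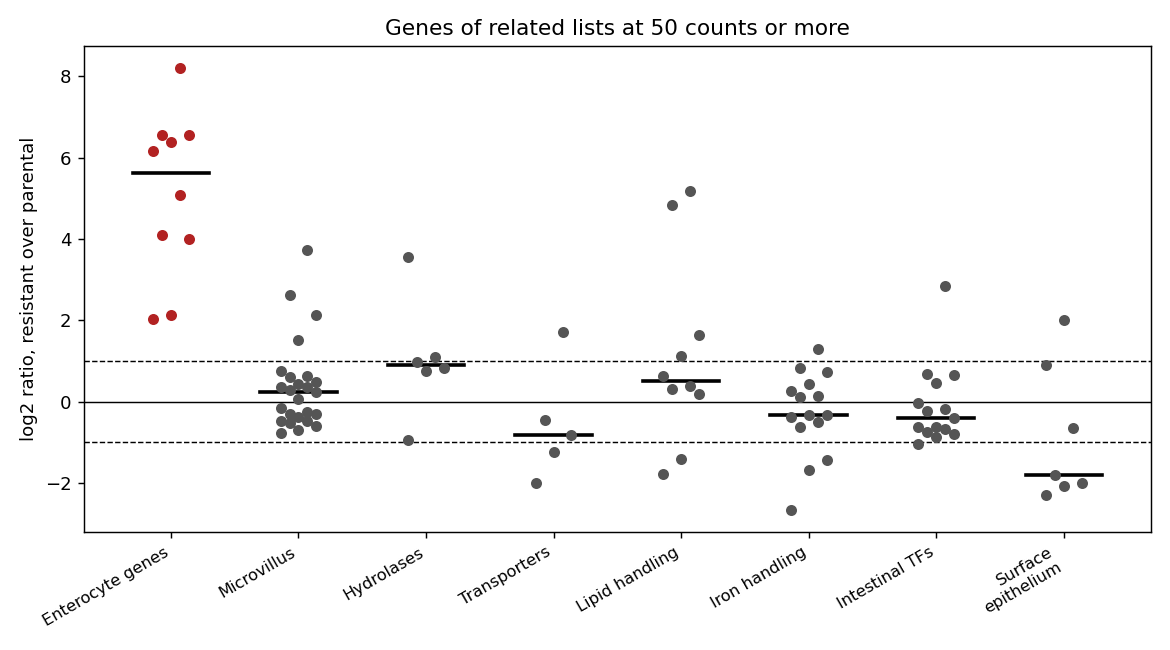
Log2 ratio of resistant over parental for genes with 50 counts or more in the enterocyte list (red) and 7 related lists (grey), with list medians as bars and 2-fold as dashed lines. The medians of the related lists run from -1.81 to 0.91, below the 5.62 of the 10 genes, which were chosen for their ratios.

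Markers of other cell types that could bring in intestinal or foreign RNA were also measured. Some leukocyte and stromal markers were near 0, with PTPRC at 19 resistant and 7 parental counts, CD3E at 1 and 1, COL3A1 at 8 and 0 and VWF at 3 and 0. Of 10 leukocyte genes 4 reached the minimum, 2 higher (50%) and 1 lower (25%), beside 6.00% and 8.95% of all genes. The summed FPKM of the 10 was 71.7 in resistant and 631 in parental cells. Most of the parental sum was LYZ, with 1555 resistant and 30464 parental counts. The higher leukocyte genes were CORO1A, with 81 resistant and 12 parental counts, and LCP1, with 2255 and 843, both actin-binding proteins, and CD68 had 582 and 351. Of 11 fibroblast and endothelial genes, 2 reached the minimum, 1 higher (50%) and 1 lower (50%), beside the same shares of all genes. These were LUM, with 523 resistant and 35 parental counts, and COL1A1, with 38 and 97. The summed FPKM of that list was 2.29 in resistant and 0.326 in parental cells. The hepatocyte genes gave 0.705 in resistant and 1.08 in parental cells, with SERPINA1 at 44 resistant and 83 parental counts, CYP3A4 at 65 and 94 and ALB at 0 and 4. The part of any of these in the values of the 10 genes was not tested.

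The 10 genes lie on 7 chromosomes, with VIL1 and TM4SF20 on chromosome 2, SI on 3, FABP2 on 4, ANXA13 and CDH17 on 8, CDHR5 on 11, TM4SF5 and KRT20 on 17 and HEPH on X. None lies on chromosome 13, which carries BRCA2 and CDX2. The nearest coding genes at the minimum, 5 on either side and 100 in all, had a median log2 ratio of 0.24, and 9 of them (9%, beside 6.00% of all genes) were at least 2-fold higher and 6 lower. Next to SI, BCHE, which encodes butyrylcholinesterase, had 687 resistant and 3 parental counts, a log2 ratio of 7.44, and the next 4 genes beyond it lay within 2-fold. TM4SF20 had 3 such neighbours, COL4A3 at 2.94, SLC19A3 at 1.65 and COL4A4 at 1.04, and its nearest neighbours, MFF and AGFG1, were at 0.34 and 0.15. Around VIL1 and ANXA13, 0 of 10 neighbours were at least 2-fold higher, and TNS1 near VIL1 was the lowest of the 100, at -3.61. KRT20 lies in a keratin cluster, in which KRT23 and KRT13 had log2 ratios of -1.17 and -2.18, KRT10 of -0.09 and KRT15 and KRT19 of 0.62 and 0.35.

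**Figure D5:**
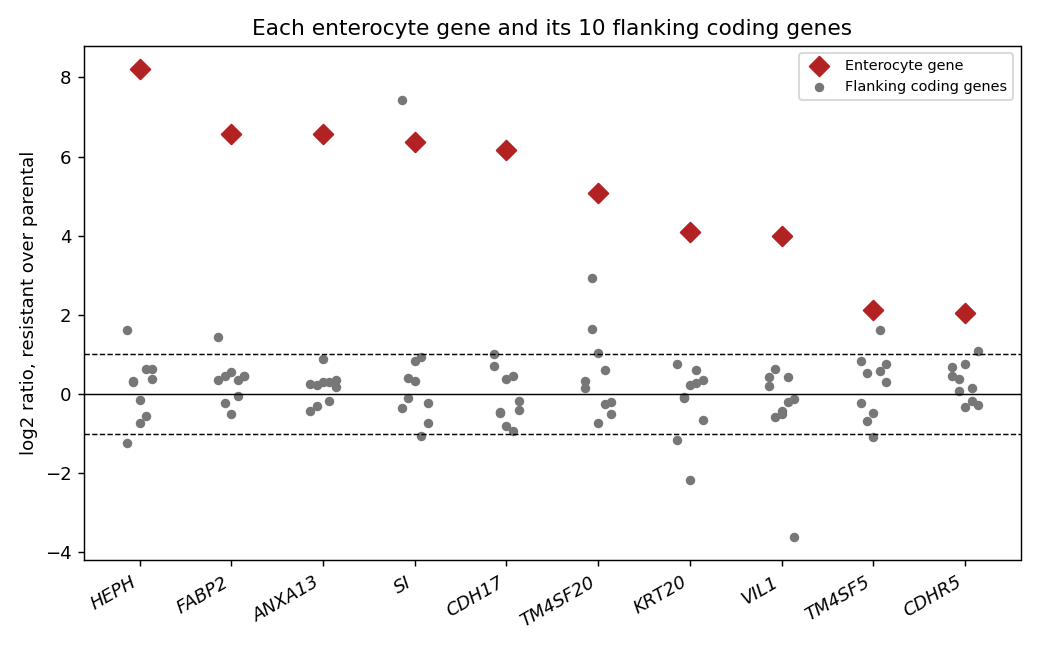
Log2 ratio of resistant over parental for each enterocyte gene (red diamonds) and its 10 flanking coding genes with 50 counts or more (grey), with 2-fold as dashed lines. Most flanking genes lie within 2-fold, and BCHE at 7.44 is the 1 flanking gene above its neighbouring enterocyte gene, SI.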

How the data were processed

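RNA sequencing gave 1 library each of resistant and parental cells. Per the labels' protocols, Trizol RNA was made into strand-specific ScriptSeq libraries. Per the submitters' processing notes, RSEM 1.2.3 and hg19 are listed, in roles not stated. The deposited counts are whole numbers with no normalization, and may be rounded estimates. The deposited FPKM values were computed by the authors per gene length. The aligner, annotation and strand setting were not given in the sources used here.

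Totals were 34507480 counts over 27940 genes in the resistant library and 34572931 over 28834 in the parental library. Scaling used TMM in edgeR 4.0.16 (R 4.3.3), with DESeq2 1.42.0 for an alternative. Log2 ratios had a prior of 1 count. A gene was higher or lower at 50 counts in the higher library and a 2-fold difference. Ratio intervals are exact conditional 95% intervals. A library at 0 was given a floor of 3 counts. With no replicates, the groups were not tested.

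Symbols came from a gene name table, which matched 29536 of 31845 identifiers, and otherwise from GENCODE release 29. Exonic length, overlaps and gene order came from GENCODE, on another build than hg19. Calculations were checked on simulated data. The genes and the lists were chosen with earlier results of these data known. From each list, up to 4 genes past 2-fold at the minimum were named by the size of their log2 ratio, or the 2 largest where none was. Relatives and nearest flanking genes could be named too, as could CDX2. Other genes were named after their values were seen. These are USP37, the core, tip-link and other microvillus genes near level, LCT, ALPI, MEP1A, TREH, MGAM, FABP1 and the factors other than CDX2 and ELF3. The further neighbours, GPA33, CA4, MUC2, CD68, POU2F3, DCLK1, TRPM5 and the markers near 0 were named in the same way. Other software was matplotlib 3.10.9, scipy 1.17.1, pandas 2.3.3, numpy 2.4.6 and Python 3.11.15.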

Additional observations from a re-analysis of the deposited data

How the results depend on the processing

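The minimum in the parental library and the ranking per exonic length were added after seeing the data. Under the planned minimums, 1975 genes were at least 2-fold higher and 2821 lower with 10 counts, 474 and 741 with 200 counts, and 5565 and 5887 with no minimum. At a fold size of 4, the numbers were 252 and 250. With 50 counts required in the parental library, 510 genes were higher, and the enterocyte genes that could be counted were 3, all higher. The minimums change which genes are counted, while the fold size of 4 changes only the size required of the same 15102 genes. Across the scalings, priors and FPKM values, VIL1 stayed at log2 ratios of 3.97 to 4.07, CDH17 at 6.10 to 6.24 and KRT20 at 4.06 to 4.17. The least abundant parental values moved most, with HEPH at 5.90 to 9.20, FABP2 at 4.30 to 7.56 and SI at 5.40 to 6.75. HEPH and FABP2 have no FPKM ratio. Of 58 such values of the 10 genes, 0 changed sign and 2, HEPH and FABP2 with a prior of 5 counts, left their counting interval. Of 151 list medians, 19 moved by more than the typical counting interval, most with another minimum. No paired analysis was possible because there is 1 library per group. Depth limits SI, FABP2, HEPH, ANXA13, CDHR5 and TM4SF5, whose lower library had 0 to 25 counts.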

Other observations

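Genes of other intestinal and gastric cell types differed in both directions, to be read beside the 6.00% of all genes that were higher and the 8.95% that were lower. Of 12 goblet cell genes, 5 reached 50 counts, and REG4, a secreted lectin, had 7461 resistant and 237 parental counts, while TFF3, a trefoil peptide, had 2959 and 640. These 2 were higher (40%), and the other 3 lay between -0.47 and -0.18 on the log2 scale, which put the median of the 5 at -0.18, against 0.94 with a minimum of 200 counts. MUC2, the main goblet mucin, had 2 resistant and 1 parental counts. Of 16 enteroendocrine genes 3 reached the minimum, NTS with 478 resistant and 0 parental counts, SCG5 with 646 and 314 and CCK with 2 and 56. LYZ, a Paneth cell enzyme, had 1555 resistant and 30464 parental counts.

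Of 11 stem and tuft cell genes 7 reached the minimum, with 1 higher (14.3%), 4 lower (57.1%) and a median log2 ratio of -2.49. OLFM4 had 1598 resistant and 25696 parental counts, AVIL 13 and 121, AXIN2 85 and 544 and LGR5 155 and 881. The gene that was higher was POU2F3, a tuft cell factor, with 103 resistant and 41 parental counts. Tuft cell genes were thus split, since AVIL is also one. DCLK1 and TRPM5, further tuft cell genes under the minimum, had 15 and 0 and 2 and 0 counts. Of 12 gastric genes 10 reached it, with 1 higher (10%), 4 lower (40%) and a median of -0.85. PGC, pepsinogen C, had 8 resistant and 110 parental counts, TFF2 2513 and 11223, MUC5AC 1169 and 4622 and MUC6 358 and 107. Of 12 pancreatic duct genes 7 reached it, with 1 higher (14.3%), 3 lower (42.9%) and a median of -0.15, which was 0.35 with a minimum of 10 counts and -0.74 with one of 200. CA2 had 136 resistant and 670 parental counts, CFTR 2563 and 8946, MUC1 1399 and 3572 and AQP1 70 and 28.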
